A study of Homo sapiens with 4 samples.

Results

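The RNAs of the human mitochondrial genome were followed in K562 cells before and after hemin. All 37 genes whose name begins with MT- in the deposited expression tables were taken, out of 61498 genes in all. They comprise 2 rRNA genes, 13 protein-coding genes and 22 tRNA genes. K562 is an erythroleukaemia cell line that moves toward the erythroid state when hemin, an iron-containing porphyrin, is added. Untreated K562 cells gave 2 libraries, and K562 cells kept in 50 µM hemin for 108 h gave 2 more. The samples were poly(A)+ RNA of 1 cell line, so the values describe RNA caught on oligo(dT) beads. Nothing says that the replicates came from separate cultures, and the p-values measure the spread between these libraries, which may be technical. Expected counts, the RSEM estimates of reads per gene, summed to 7455447 to 8241534 per library. The erythroid markers GATA1, TAL1, KLF1, HBG1, HBG2, HBE1 and TFRC passed the count filter, and of these HBE1 and TFRC rose after hemin. Of 7 markers of other cell types, EPCAM alone passed the filter, with 288 to 319 counts per library. The summed count of these 7 markers was 307 to 341 per library, and CD3E was at 0 in all 4 libraries.

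Mitochondrial DNA is transcribed from both strands into long RNAs that run through many genes. The tRNAs lie between the other genes, and their excision frees the rRNAs and mRNAs. RNase P (TRMT10C, HSD17B10 and PRORP) cuts at the 5′ end of a tRNA and ELAC2 at its 3′ end. The poly(A) polymerase MTPAP then adds tails to the mRNAs, which in several of them complete the stop codon. The rRNAs carry only short tails of adenines, and the MT-ND6 mRNA is known to lack a stable one. The products are the RNA parts of the mitochondrial ribosome, its tRNAs, and subunits of respiratory complexes I, III, IV and V, on which erythroid cells also rely for the heme synthesis that starts and ends in mitochondria.

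The sequences below were read from the mitochondrial chromosome (chrM) of GRCh38, and all 37 gene sequences were equal to those of the GENCODE 44 transcripts. First come the last 24 bases of the 2 mRNAs that rose after hemin (MT-ND1 and MT-CYB) and of 3 others that differ in how they end. Capitals mark the stop codon, or the bases left over after the last full codon. MT-ND1 ends at chrM:4239-4262, MT-CYB at chrM:15864-15887, MT-ND4 at chrM:12114-12137 and MT-CO1 at chrM:7422-7445 on the plus strand. MT-ND6 ends at chrM:14149-14172 on the minus strand.
MT-ND1: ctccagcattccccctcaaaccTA
MT-CYB: aaaacaaaatactcaaatgggccT
MT-ND4: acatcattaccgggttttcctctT
MT-CO1: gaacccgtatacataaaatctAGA
MT-ND6: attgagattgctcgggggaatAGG
Of the 13 mRNA genes, 6 lacked a full stop codon in the DNA, 5 of them ending in T and 1 in TA. Another 5 ended in TAA or TAG, and 2 (MT-CO1 and MT-ND6) in AGA or AGG. Both mRNAs that rose belonged to the group without a full stop codon, as did MT-ND2, MT-CO3, MT-ND3 and MT-ND4, which did not pass the test.

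The next set shows the tRNA genes that border the rRNAs, namely MT-TF (chrM:577-647) before MT-RNR1, MT-TV (chrM:1602-1670) between the rRNAs and MT-TL1 (chrM:3230-3304) after MT-RNR2. MT-TA (chrM:5587-5655, minus strand) is added as the tRNA gene with the most reads. Capitals mark the last 3 bases of the gene. In 21 of the 22 tRNA genes these are not CCA, the end that the enzyme TRNT1 adds.
MT-TF: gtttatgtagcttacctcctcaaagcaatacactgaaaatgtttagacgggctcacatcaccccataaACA
MT-TV: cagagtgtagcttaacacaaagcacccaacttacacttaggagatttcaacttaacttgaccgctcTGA
MT-TL1: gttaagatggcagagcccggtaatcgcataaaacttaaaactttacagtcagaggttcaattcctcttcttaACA
MT-TA: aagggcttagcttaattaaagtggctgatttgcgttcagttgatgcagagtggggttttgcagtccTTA
Some genes overlap. MT-ATP8 and MT-ATP6 share 46 bases (chrM:8527-8572), shown with the first codon of MT-ATP6 and the stop codon of MT-ATP8 in capitals.
MT-ATP8 and MT-ATP6: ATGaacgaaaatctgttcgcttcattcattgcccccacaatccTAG
MT-ND4L and MT-ND4 share 7 bases, and MT-ATP6 and MT-CO3 share 1. RSEM divides reads that fit several genes, and its posterior SD came to 0.14% of the count for MT-ATP6, 0.126% for MT-ND2 and at most 0.0323% for the other rRNA and mRNA genes.

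Mitochondrial RNA took about the same share of all libraries but one. The 37 genes held 12.88% of the expected counts (95% exact interval 12.86 to 12.91) in untreated replicate 1 and 12.84% (12.81 to 12.86) in untreated replicate 2. They held 12.75% (12.73 to 12.77) in hemin replicate 1 and 13.64% (13.62 to 13.66) in hemin replicate 2. These intervals cover counting error only, and the groups overlapped. The mean share was 12.9% ± 0.0334 (SD, n = 2) untreated and 13.2% ± 0.628 (SD, n = 2) after hemin, so the difference of 0.334 percentage points was smaller than the spread of the hemin libraries. In TPM, where short genes weigh more, the share was 24.01% ± 0.0337 untreated and 23.90% ± 1.15 after hemin (SD, n = 2 each), a difference of -0.108 percentage points and again within the spread. In bulk RNA, a change in the amount per cell and a change in the share of cells that carry it cannot be told apart.

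The classes did not move alike. The rRNAs held 3.47% and 3.49% of the expected counts in the untreated libraries, and 3.91% and 4.22% in the hemin libraries. Both hemin values lay above both untreated ones, with means of 3.48% ± 0.012 and 4.07% ± 0.225 (SD, n = 2 each). The mRNAs held 9.36% and 9.30% untreated, and 8.79% and 9.36% after hemin, so the groups overlapped. Their means were 9.33% ± 0.0458 and 9.08% ± 0.403 (SD, n = 2 each). The tRNA genes held only 0.0526% and 0.0532% untreated, and 0.0504% and 0.0514% after hemin.

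The ratio of rRNA to mRNA separated the groups clearly. In expected counts it was 0.370 and 0.375 in the untreated libraries, and 0.444 and 0.451 in the hemin libraries. The means were 0.373 ± 0.00312 and 0.448 ± 0.00489 (SD, n = 2 each), a ratio of 1.20 between conditions. Per length, in TPM (transcript shares scaled by effective length), it was 0.192 and 0.191 untreated, and 0.234 and 0.233 after hemin. The gap between conditions was thus far larger than the spread within either. With 2 libraries against 2, an exact two-sided permutation test cannot give a p below 0.333, and none is given for these sums. Leaving MT-ND6, the gene on the other strand, out of the mRNAs gave 1.20 between conditions as well. MT-RNR1 alone over the mRNAs gave 1.34 and MT-RNR2 alone gave 1.19.

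**Figure D1:**
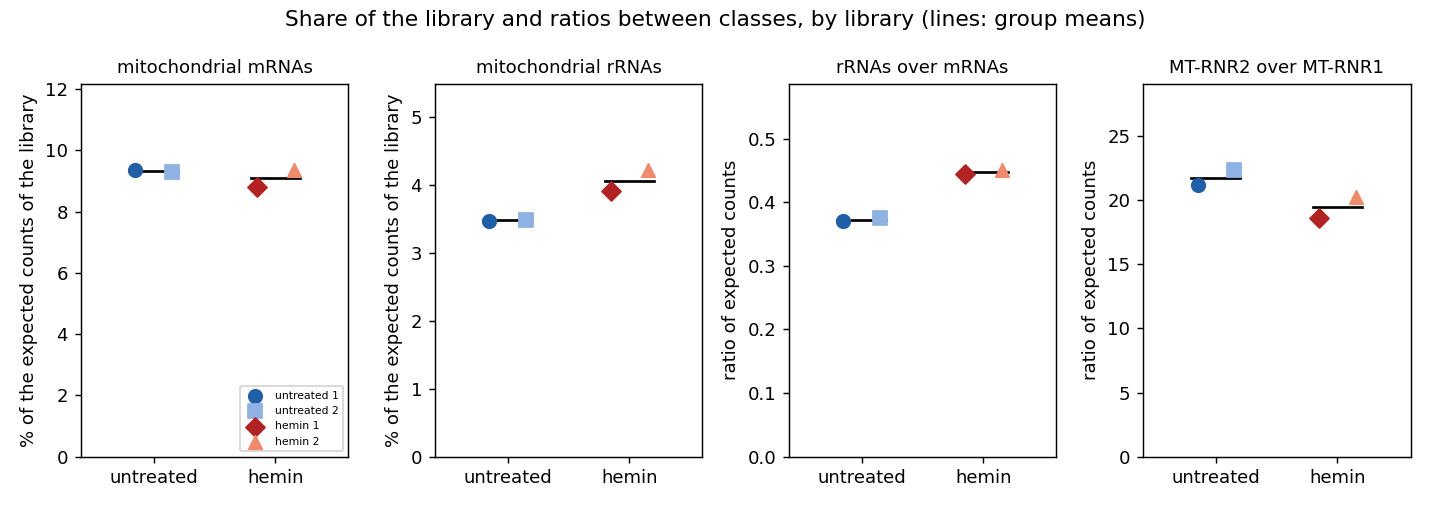
Percent of all expected counts held by mitochondrial mRNAs and rRNAs, and the ratios of rRNAs to mRNAs and of MT-RNR2 to MT-RNR1, with 1 point per library and a line at each group mean. The rRNA share and the rRNA to mRNA ratio (0.370 and 0.375 untreated, 0.444 and 0.451 after hemin) were higher in both hemin libraries, while the mRNA shares overlapped.

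Tested gene by gene with edgeR's quasi-likelihood test over 14458 genes, 4 of the 36 MT- genes that passed the count filter rose after hemin and 0 fell. Of all genes tested, 7.00% rose and 7.14% fell at the same threshold, an adjusted p below 0.05 by Benjamini-Hochberg. The share of members that rose, 11.1%, rests on 4 genes. These were both rRNAs, MT-RNR1 and MT-RNR2, and the mRNAs MT-CYB and MT-ND1. At an unadjusted p below 0.05, 7 members were higher and 3 lower (MT-ND4, MT-ND4L and MT-TA), that is 19.4% and 8.33%, against 14.8% and 14.6% of all genes tested. DESeq2 called 4 members higher and 0 lower, and 4.07% and 3.49% of all genes. Limma on log2(TPM + 0.1) called 1 member higher (MT-RNR1) and 0 lower, and 0.104% and 0.235% of all genes. Limma on log2(TPM + 1) called no member, and 0.0968% of all genes higher and 0.228% lower. The median log2 fold change was -0.027 over the 36 members and -0.0048 over all genes tested. The normalised values of the groups did not overlap in 10 members with hemin above and in 9 with hemin below, that is 27.8% and 25.0% of the members, against 28.1% and 29.3% of all genes tested.

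MT-RNR1 (ENSG00000211459, chrM:648-1601, plus strand), the 12S rRNA of the small mitochondrial ribosomal subunit, had the lowest adjusted p of all members. It had 1544 and 1484 normalised CPM (counts per library total, scaled by the TMM method) in the untreated libraries, and 2018 and 2028 in the hemin libraries. All hemin values were above all untreated values. The log2 fold change was 0.42 (SE 0.037, edgeR adjusted p = 0.000291), which is 1.34-fold. Its share of the library went from 0.153% ± 0.00524 to 0.199% ± 0.000406 (SD, n = 2 each).

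MT-RNR2 (ENSG00000210082, chrM:1671-3229, plus strand), the 16S rRNA of the large subunit, held more reads than any other member. It had 32672 and 33215 normalised CPM untreated, and 37559 and 41123 after hemin. Again the groups did not overlap, but the hemin libraries lay further apart than the untreated ones. The log2 fold change was 0.26 (SE 0.041, edgeR adjusted p = 0.00437), or 1.19-fold. Its share of the library was 3.32% ± 0.0172 untreated and 3.87% ± 0.225 after hemin (SD, n = 2 each). The ratio of MT-RNR2 to MT-RNR1, chosen after the values were seen, was 21.2 and 22.4 in expected counts of untreated cells and 18.6 and 20.3 after hemin. Per length, in TPM, MT-RNR2 stood 13.1 ± 0.515 times above MT-RNR1 untreated and 11.7 ± 0.703 times after hemin (SD, n = 2 each). The rRNAs rest on the RNA that poly(A) selection let through, so a different level and a different capture cannot be told apart.

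MT-CYB (ENSG00000198727, chrM:14747-15887, plus strand) encodes cytochrome b, the one mitochondrially encoded subunit of complex III. It had 3718 and 3761 normalised CPM in untreated cells, and 4547 and 4986 in hemin-treated cells. The groups were well apart. The log2 fold change was 0.35 (SE 0.045, edgeR adjusted p = 0.0015), which is 1.27-fold. MT-CYB made up 4.04% ± 0.027 of the mitochondrial mRNA counts untreated and 5.16% ± 0.0765 after hemin (SD, n = 2 each). It lies downstream of MT-ND5 on the same strand, with MT-ND6 between them on the minus strand. Neither MT-ND5 nor MT-ND6 passed the test. The ratio of MT-CYB to MT-ND5 in expected counts, chosen after the values were seen, was 0.919 and 0.938 untreated and 1.12 and 1.31 after hemin.

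MT-ND1 (ENSG00000198888, chrM:3307-4262, plus strand), a membrane subunit of complex I, is the first mRNA after the rRNAs. It had 3738 and 3704 normalised CPM untreated, and 4239 and 4462 after hemin. Both hemin values were higher. The log2 fold change was 0.23 (SE 0.037, edgeR adjusted p = 0.00503), or 1.17-fold. The ratio of MT-ND1 to the next mRNA, MT-ND2, was 0.544 and 0.541 in expected counts untreated and 0.631 and 0.611 after hemin (chosen after the values were seen).

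All 4 increases were called whichever library was left out, and with the replicate block. On log2 TPM with limma, 3 of the 4 were not past the threshold with either pseudocount, with adjusted p of 0.132 and 0.141 for MT-RNR2, 0.0858 and 0.0845 for MT-CYB, and 0.126 and 0.13 for MT-ND1 (pseudocounts of 0.1 and 1). MT-RNR1 had 0.0475 and 0.0536. The log2 fold changes under limma were 0.39 for MT-RNR1, 0.22 for MT-RNR2, 0.32 for MT-CYB and 0.19 for MT-ND1 with either pseudocount, and limma called only 15 and 14 of all genes higher. Scaled to the mitochondrial total in place of the library, MT-RNR1, MT-RNR2 and MT-CYB still rose, MT-ND1 was at 0.15 (edgeR adjusted p = 0.0969), and MT-ND4 fell by 0.17 (edgeR adjusted p = 0.0245). Under that scaling 1.74% of all genes tested rose and 8.58% fell.

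The other 6 complex I subunits did not pass the test. MT-ND4L and MT-ND4, core subunits of the membrane arm read from a shared mRNA, had log2 fold changes of -0.11 (SE 0.045, edgeR adjusted p = 0.154) and -0.099 (SE 0.04, edgeR adjusted p = 0.135). MT-ND4 had 17698 and 17610 normalised CPM untreated, and 15786 and 17180 after hemin, so both hemin values lay below the untreated ones. The ratio of MT-ND4L to MT-ND4 was 0.191 and 0.193 in expected counts untreated, and 0.190 and 0.192 after hemin. MT-ND3 was at -0.074 (edgeR adjusted p = 0.231), MT-ND5 at -0.032 (0.644 by the same test), and MT-ND2 at 0.033 (0.663). MT-ND6, on the minus strand, had 1050 and 1041 normalised CPM untreated, and 1114 and 946 after hemin, at -0.022 (edgeR adjusted p = 0.866). Its hemin libraries thus lay on either side of the untreated ones. No strand option is stated for the counting, so its mRNA cannot be told apart from RNA of the opposite strand. Over the 7 subunits, complex I held 40.6% ± 0.195 of the mitochondrial mRNA counts untreated and 39.8% ± 0.428 after hemin (SD, n = 2 each).

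The 3 mitochondrially encoded subunits of complex IV, cytochrome c oxidase, were also not past the threshold. MT-CO1 had 18717 and 18473 normalised CPM untreated, and 17814 and 19248 after hemin. MT-CO2 had 9652 and 9659 untreated, and 9049 and 9706 after hemin. For both the groups overlapped, with log2 fold changes of -0.005 and -0.042 (edgeR adjusted p = 0.952 and 0.517). MT-CO3 had 11142 and 11317 normalised CPM untreated, and 11448 and 12217 after hemin. Both of its hemin values were higher, at 0.075 (SE 0.037, edgeR adjusted p = 0.213). Complex IV held 42.7% ± 0.115 of the mitochondrial mRNA counts untreated and 43.0% ± 0.0287 after hemin (SD, n = 2 each).

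The complex V subunits MT-ATP8 and MT-ATP6, parts of the ATP synthase, share an mRNA and the overlap printed above. MT-ATP6 had 9028 and 9151 normalised CPM untreated, and 8255 and 8914 after hemin, at -0.082 (SE 0.04, edgeR adjusted p = 0.208). MT-ATP8 had 2494 and 2767 untreated, and 2250 and 2802 after hemin, at -0.058 (SE 0.088, edgeR adjusted p = 0.716). The ratio of MT-ATP8 to MT-ATP6 in expected counts was 0.276 and 0.302 untreated, and 0.273 and 0.314 after hemin, so it varied more within a group than between groups. Complex V held 12.7% ± 0.283 of the mitochondrial mRNA counts untreated and 12.0% ± 0.323 after hemin (SD, n = 2 each).

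**Figure D2:**
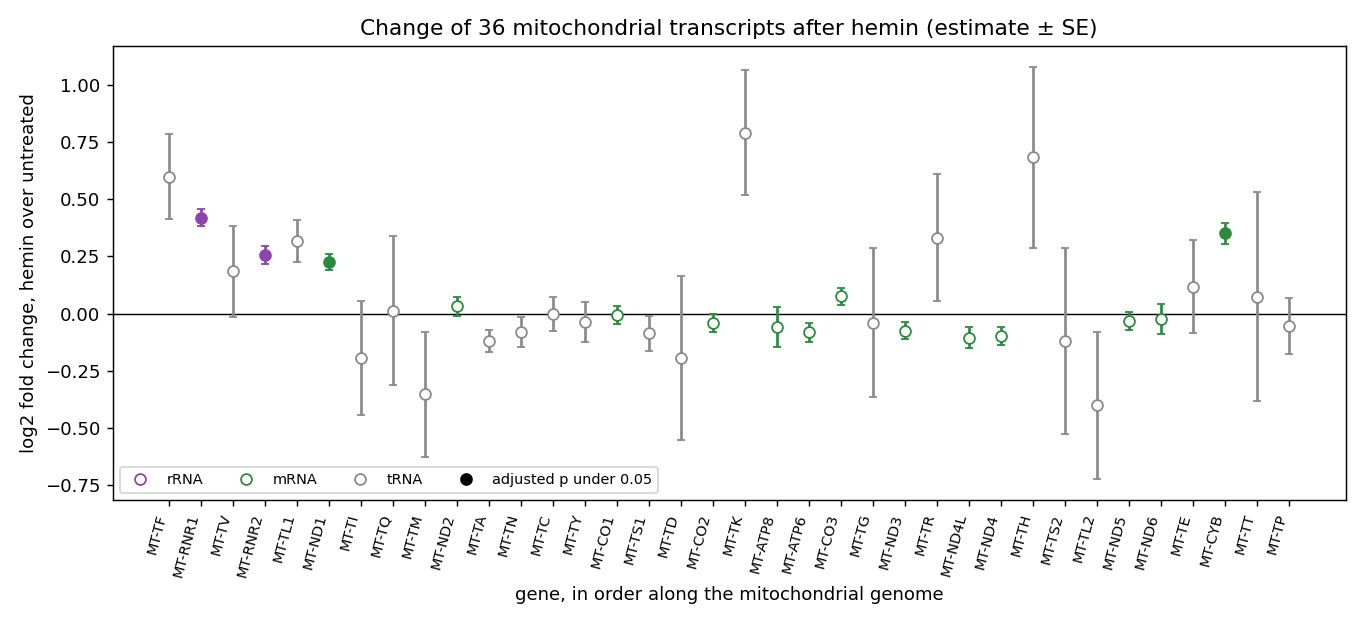
Fitted log2 fold change of hemin over untreated (± SE) for the 36 MT- genes that passed the count filter, in order along the genome, with filled points at an edgeR adjusted p below 0.05. MT-RNR1 (0.42), MT-RNR2 (0.26), MT-ND1 (0.23) and MT-CYB (0.35) are filled, and the other mRNAs lie between -0.11 and 0.075.

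The hemin libraries themselves differed in mitochondrial mRNA. In normalised CPM, 10 of the 13 mRNAs were higher in hemin replicate 2 than in hemin replicate 1, with a median log2 difference of 0.11. Between the untreated replicates 7 of 13 were higher in replicate 2, with a median of 0.001. For comparison, the central 95% of 515 nuclear genes with a mean count of at least 2000 lay between -0.15 and 0.099 in the hemin pair. Outside that range lay 8 mRNAs above and 1 below, MT-ND6 at -0.24. MT-RNR2 differed by 0.13 in this pair and MT-RNR1 by 0.0077. Without hemin replicate 2, MT-ND4 (-0.16), MT-ND4L (-0.17), MT-ATP6 (-0.14) and MT-ATP8 (-0.23) passed the threshold as lower (edgeR adjusted p = 0.0023, 0.00746, 0.014 and 0.00641), as did 5.14% of all genes tested in that fit. Without hemin replicate 1, MT-CO3 (0.13) and MT-TF (0.78) passed it as higher (edgeR adjusted p = 0.00996 and 0.0137), as did 6.13% of all genes tested in that fit. The fits that leave 1 library in a group assume that it varies like the others.

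Levels per length of the RNA caught on oligo(dT) beads spanned a wide range. How far genes differ in capture was not tested, and the strand limit given for MT-ND6 holds here too. In TPM, MT-RNR2 was highest in both conditions, at 30450 ± 40.8 untreated and 35577 ± 2027 after hemin (SD, n = 2 each). In untreated cells MT-ATP8 came next, at 23154 ± 1398, before MT-CO3 at 21315 ± 42.1 and MT-CO2 at 21213 ± 265, and the last pair overlapped. The place of MT-ATP8 depends on the divisor, since its effective length was 158.6 of 207 bases. Per base of full gene length, MT-ATP8 had 97.7 expected counts on average in untreated cells, below MT-CO3 (110), MT-CO2 (109), MT-ATP6 (103) and MT-ND4 (98.6). MT-ATP6 (20063 ± 67.7), MT-ND4L (19014 ± 204), MT-ND4 (18541 ± 307) and MT-CO1 (17386 ± 388) followed without overlap of neighbours. These levels leave out reads that RSEM gave to nuclear copies of the genes. The copy MTATP6P1 held 13.4% of the counts of itself and MT-ATP6 together, and MTND2P28 held 7.31% with MT-ND2. The place of MT-ATP6 therefore depends on how such reads were divided. The lower group was MT-ND2 at 9640 ± 152, MT-ND1 at 5726 ± 112, MT-CYB at 4779 ± 22.8, MT-ND3 at 3937 ± 18, MT-ND5 at 3189 ± 59.7, MT-ND6 at 3063 ± 59.2 and MT-RNR1 at 2335 ± 95.2. After hemin MT-RNR1 stood at 3052 ± 10 and overlapped with MT-ND5 at 3052 ± 162, which in turn overlapped with MT-ND6 at 2954 ± 362. After hemin MT-ATP8 overlapped with both MT-CO3 and MT-CO2, while MT-CO3 (21371 and 22579 TPM) stayed above MT-CO2 (19550 and 20760). MT-ND4L overlapped with MT-ATP6, MT-CO1 and MT-ND4, and the last pair overlapped with each other, but MT-ATP6 (17920 and 19158 TPM) stayed above both. Among all genes ranked by mean TPM, 9 of the first 10 and 14 of the first 20 were members in both conditions, tRNA genes included.

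**Figure D3:**
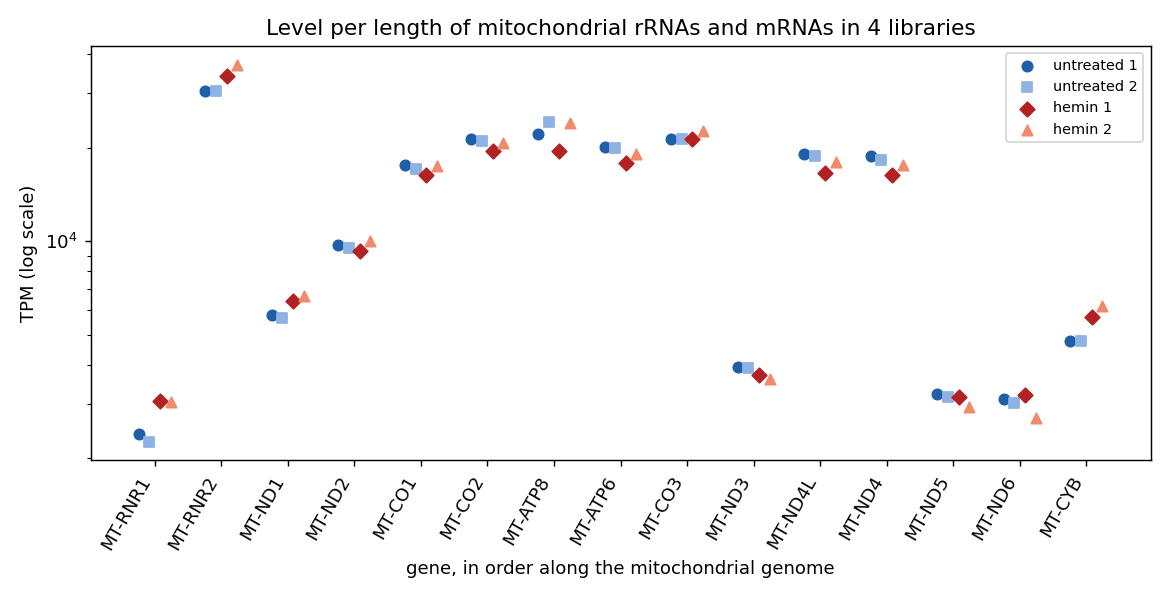
TPM (log scale) of the 2 rRNAs and 13 mRNAs in each of the 4 libraries, in order along the genome. MT-RNR2 was highest in every library, MT-RNR1 was lowest in both untreated libraries, and the hemin points of MT-RNR1, MT-RNR2, MT-ND1 and MT-CYB lie above the untreated ones.

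The tRNA genes gave few reads and none passed the test. Of the 22 genes, 21 passed the count filter, and MT-TW, with 7 to 10 counts, did not. Reads of 50 bases are long against genes of 59 to 75 bases, and RSEM's effective lengths for them were 10.6 to 26.6 bases. A tRNA's TPM rests on that small divisor, so levels are compared here as counts per base of gene length. Untreated, the median of the tRNA genes was 0.562 counts per base, against 87.7 for the mRNAs. Full length includes positions where no whole read can start, so this measure sets the tRNAs lower against the mRNAs than TPM does. In TPM the tRNA genes held 15.1% of the mitochondrial total in untreated cells, against 13.7% for the rRNAs and 71.2% for the mRNAs. Reads that cross the border of a tRNA in an uncut precursor match no single annotated transcript and do not enter these counts.

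**Figure D4:**
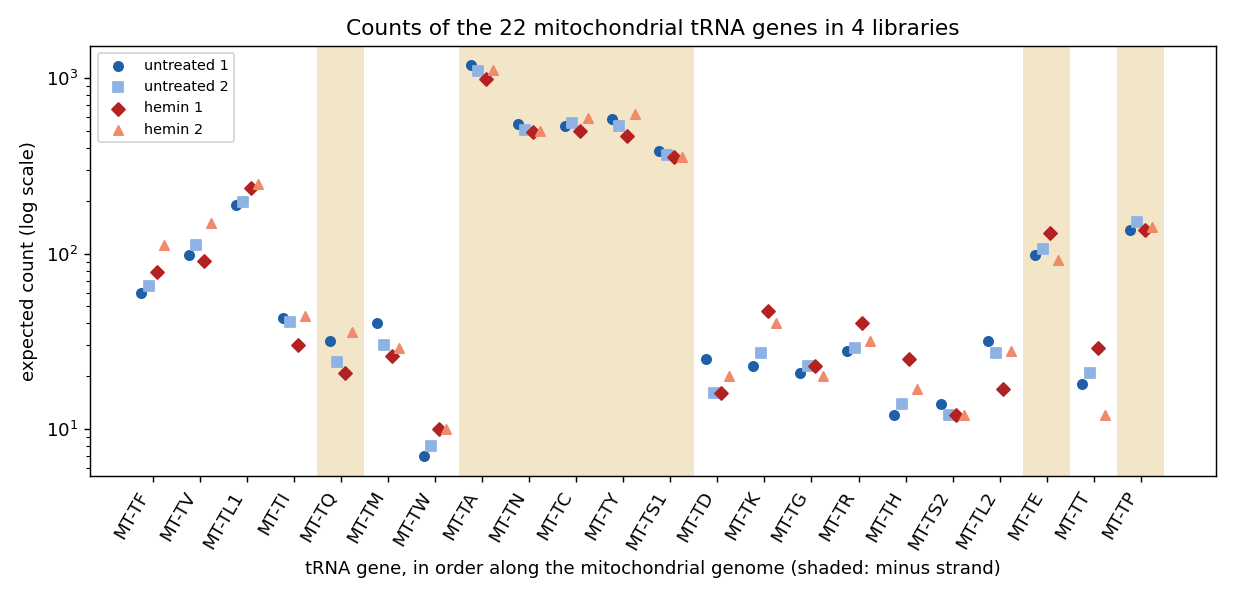
Expected counts (log scale) of the 22 tRNA genes in each of the 4 libraries, in order along the genome, with genes on the minus strand shaded. MT-TA, MT-TN, MT-TC, MT-TY and MT-TS1, the minus-strand genes on either side of MT-CO1, stand above all others with 355 to 1181 counts.

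Most tRNA reads fell on genes of the minus strand. The 8 tRNA genes of that strand held 85.1% and 84.3% of the tRNA counts in the untreated libraries, and 82.0% and 81.7% in the hemin libraries. Of these, MT-TA, MT-TN, MT-TC and MT-TY, which lie side by side before MT-CO1, and MT-TS1, which follows it, held 78.6% and 77.1% untreated and 74.3% and 75.3% after hemin. The tRNA with the most reads, MT-TA (tRNA for alanine), had 1181 and 1101 expected counts untreated, and 993 and 1118 after hemin. No strand option is stated for the counting, so reads from the opposite strand of these genes cannot be told apart from the tRNAs or their precursors. In normalised CPM, MT-TA had a log2 fold change of -0.12 (SE 0.047, edgeR adjusted p = 0.123), MT-TN -0.079 (0.474 by the same test), MT-TS1 -0.086 (0.501), MT-TY -0.038 (0.821) and MT-TC -0.00027 (0.998).

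None of the 3 tRNA genes that border the rRNAs passed the test. MT-TF (tRNA for phenylalanine) had 60 and 65 expected counts untreated, and 79 and 112 after hemin, with a log2 fold change of 0.60 (SE 0.19, edgeR adjusted p = 0.0623). MT-TL1 (the UUR leucine tRNA), within which the terminator protein MTERF1 binds the DNA, had 190 and 198 counts untreated, and 237 and 249 after hemin, at 0.32 (SE 0.093, edgeR adjusted p = 0.0506). The groups of both were apart without passing the threshold. MT-TV (tRNA for valine), between the rRNAs, had 98 and 112 counts untreated, and 91 and 150 after hemin, at 0.18 (SE 0.20, edgeR adjusted p = 0.594). Its groups overlapped, and without hemin replicate 2 the estimate was -0.15 (edgeR adjusted p = 0.706). MT-TK, the lysine tRNA before MT-ATP8, had the highest estimate, with 23 and 27 counts untreated and 47 and 40 after hemin, at 0.79 (SE 0.27, edgeR adjusted p = 0.0854). Of 15 alternative fits, MT-TF was past the threshold in 4, MT-TL1 in 5 and MT-TK in 1.

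The remaining 12 tested tRNA genes had low counts and wide errors. Positive estimates were those of MT-TH (0.68, SE 0.40), MT-TR (0.33, SE 0.28), MT-TE (0.12, SE 0.20), MT-TT (0.074, SE 0.46) and MT-TQ (0.013, SE 0.32). Negative ones were those of MT-TL2 (-0.40, SE 0.32), MT-TM (-0.35, SE 0.27), MT-TI (-0.19, SE 0.25), MT-TD (-0.19, SE 0.36), MT-TS2 (-0.12, SE 0.41), MT-TP (-0.054, SE 0.12) and MT-TG (-0.039, SE 0.33). With 12 to 152 counts per library, no difference was detectable for these genes at this depth. Over the 21 tested tRNA genes, 9 estimates were positive and 12 negative, with a median of -0.038.

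The nuclear genes whose products act on mitochondrial DNA or RNA were examined as 5 lists with 53 genes in all, each of which passed the count filter. Of these, 7 rose and 1 fell, or 13.2% and 1.89%, against 7.00% and 7.14% of all genes tested. The median log2 fold change was 0.13, with 44 of 53 estimates positive. Over all genes tested it was -0.0048, with 7101 of 14458 estimates positive. The lists were written with earlier results of these data known, so these shares only describe the listed genes. Whether the genes changed together was not tested. Among 8 transcription genes 2 rose, TFB2M, the initiation factor of the mitochondrial RNA polymerase, and TFAM, which binds the promoters and packages the DNA. TFB2M had 24.6 ± 0.552 TPM untreated and 33.2 ± 0.75 after hemin (SD, n = 2 each), at 0.47 (SE 0.08, edgeR adjusted p = 0.00609). TFAM went from 61.5 ± 2.76 to 76.3 ± 0.537 TPM, at 0.31 (SE 0.056, edgeR adjusted p = 0.00791). The polymerase itself, POLRMT, had 61.9 ± 4.34 TPM untreated and 62.0 ± 2.91 after hemin (edgeR adjusted p = 0.596). It is named beside its partners after its values were seen. MTERF3 was the lowest of this list, at 0.004 (edgeR adjusted p = 0.99).

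Among 8 genes of RNA processing, tRNA cleavage included, TRMT10C, a subunit of mitochondrial RNase P, and TRNT1, which adds CCA to tRNAs, rose. TRMT10C had 25.8 ± 0.721 TPM untreated and 34.6 ± 1.69 after hemin, at 0.40 (SE 0.082, edgeR adjusted p = 0.0131). TRNT1 had 29.8 ± 0.997 and 38.7 ± 2.03 TPM, at 0.30 (SE 0.077, edgeR adjusted p = 0.0334). PTCD2 was the lowest of this list, at -0.001 (edgeR adjusted p = 0.996). Among 13 genes of polyadenylation, stability and decay, LRPPRC, which keeps mitochondrial mRNAs stable together with SLIRP, rose by 0.19 (SE 0.039, edgeR adjusted p = 0.012), from 199 ± 6.53 to 222 ± 6.23 TPM. FASTKD1, a protein of the FASTK family of mitochondrial RNA binders, fell by 0.34 on the log2 scale (SE 0.062, edgeR adjusted p = 0.00822), from 70.7 ± 2.69 to 53.3 ± 0.841 TPM. Its relative FASTKD2 had the highest estimate of this list without passing the test, at 0.31 (SE 0.09, edgeR adjusted p = 0.0507).

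Of 14 genes for rRNA modification and mitoribosome assembly, ERAL1, a chaperone of the 12S rRNA, rose by 0.27 (SE 0.07, edgeR adjusted p = 0.0313), from 39.1 ± 5.06 to 48.6 ± 0.354 TPM. MRM3, a methyltransferase of the 16S rRNA, had the highest estimate of that list (0.39, SE 0.14, edgeR adjusted p = 0.0946) and MRM1 the lowest (-0.092, SE 0.18, edgeR adjusted p = 0.789). Of 10 genes for mitochondrial DNA replication, RNASEH1, which removes RNA from RNA-DNA hybrids, rose by 0.24 (SE 0.057, edgeR adjusted p = 0.0252). POLG2, the accessory subunit of the DNA polymerase, was at -0.28 (SE 0.085, edgeR adjusted p = 0.0577). Of the 8 genes called, TFB2M and TFAM were called whichever library was left out, although TFAM without untreated replicate 2 was at the threshold (edgeR adjusted p = 0.05, just below it before rounding). With DESeq2, TRMT10C, TRNT1, ERAL1 and RNASEH1 were not past it (DESeq2 adjusted p = 0.0737, 0.185, 0.156 and 0.0723). TRNT1 and ERAL1 lost the call whichever of the 4 libraries was left out, RNASEH1 without either untreated library or hemin replicate 2, TRMT10C without either untreated library, and LRPPRC and FASTKD1 without untreated replicate 1 (edgeR adjusted p = 0.0567 to 0.146 in these fits).

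**Figure D5:**
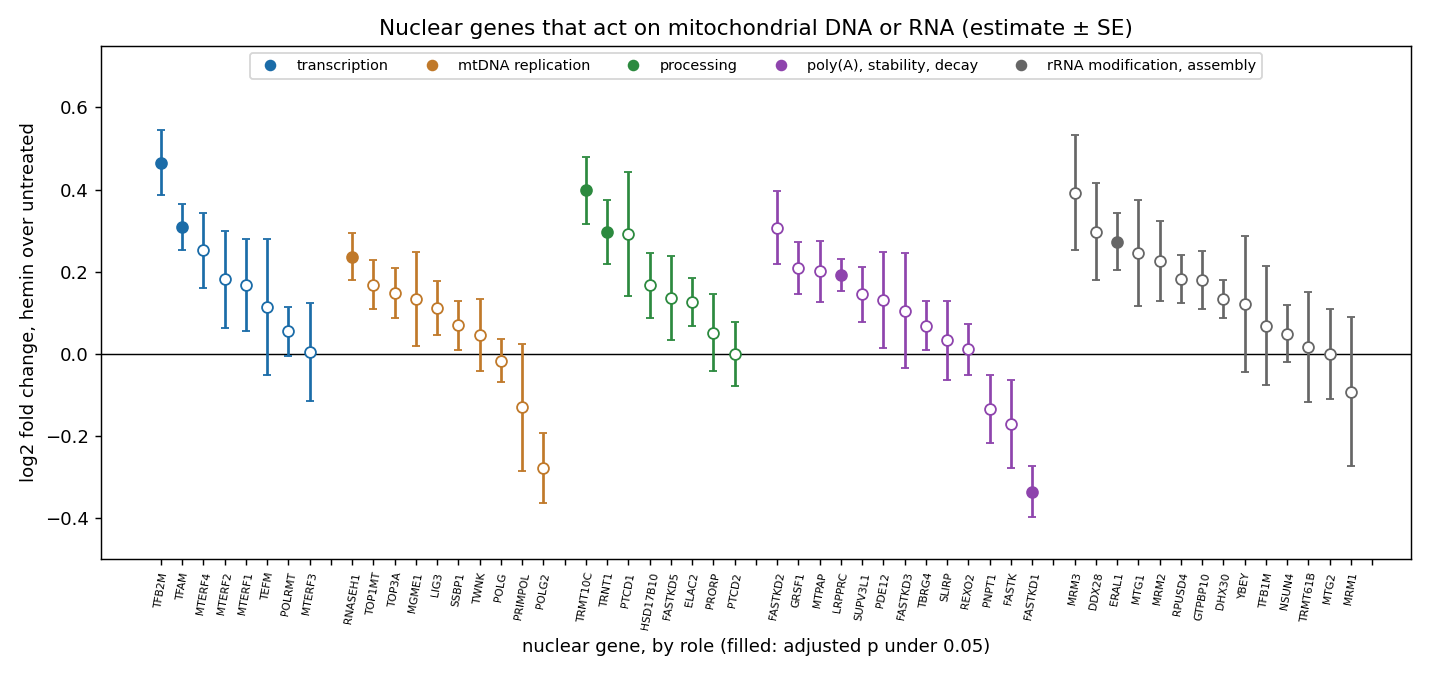
Fitted log2 fold change of hemin over untreated (± SE) of 53 nuclear genes that act on mitochondrial DNA or RNA, grouped by role and sorted within each group, with filled points at an edgeR adjusted p below 0.05. TFB2M (0.47), TFAM, TRMT10C, TRNT1, LRPPRC, ERAL1 and RNASEH1 are filled above the zero line, and FASTKD1 (-0.34) below it.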

How the data were processed

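RNA-seq of K562 poly(A)+ RNA (2 untreated and 2 hemin-treated libraries) was analysed from the values deposited by the authors. The authors trimmed 50-base reads with Trimmomatic 0.39 and quantified them with RSEM 1.3.1 on Ensembl 106 (GRCh38). The deposited expected counts and posterior mean counts are estimated counts per gene, not normalized. The authors' TPM were scaled by effective length. The deposited length less effective length was 48.4 bases, shorter than the mean fragment length given in the methods. The deposited posterior SD is a score of how surely shared reads were divided. The authors' FPKM tables were not used.

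From these, whole-number counts of the 14458 genes past filterByExpr (minimum count 10) were compared between conditions by the quasi-likelihood test of edgeR 4.0.16 (R 4.3.3), with TMM scaling and Benjamini-Hochberg adjustment. The fit was tried on simulated counts that gave every gene the same dispersion. Such counts are simpler than the real ones and hold no shift between replicate libraries. Alternatives used limma 3.58.1, DESeq2 1.42.0 and other scalings and filters. Exact intervals used scipy 1.17.1. Coordinates are from GENCODE 44, whose lengths matched those of the files for all 37 genes.

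The members and gene lists were chosen with earlier results of these data known. Named were all rRNA and protein-coding members, the tRNA genes that passed the filter, every called gene and the extremes of each nuclear list, and, of nuclear copies, the 3 with the highest mean count and any called. Same-numbered replicates are not stated to be paired. One gene of the erythroid marker list is not reported here.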

Additional observations from a re-analysis of the deposited data

How the results depend on the processing

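The increases of MT-RNR1, MT-RNR2, MT-CYB and MT-ND1 kept their direction under all 15 alternatives and their call in 52 of 60 fits. The number of MT- genes called higher was 7 with posterior mean counts, 1 with limma on log2(TPM + 0.1) and 0 with limma on log2(TPM + 1), against 4, while of all genes 1347, 15 and 14 were called higher, against 1012. The number called lower was 4 by library size only and 1 scaled to the mitochondrial total, against 0 (of all genes 1358 and 1240, against 1033), and ranged from 0 to 4 when each library was left out. DESeq2 called 3 genes of the nuclear list higher, scaling to the mitochondrial total 1 and limma at either pseudocount 0, against 7. Of all genes, DESeq2 called 589 higher, that scaling 251, and limma 15 and 14, against 1012. Library size only, posterior mean counts, the strict filter of 20 counts and scaling to the mitochondrial total called 2 listed genes lower, against 1. Of all genes, these fits called 1358 of 14458, 1357 of 14608, 1265 of 12588 and 1240 of 14458 lower, against 1033 of 14458. Limma called 0 listed genes lower at either pseudocount, and 34 and 33 of all genes (pseudocounts of 0.1 and 1). The ratio of rRNA to mRNA between conditions was 1.22 in TPM and 1.34 for MT-RNR1 alone, against 1.20. Same-numbered libraries did not deviate together (r = -0.033 over 8986 genes). With the replicate block 4 MT- genes were called higher and 0 lower, and of the nuclear list 6 and 1. TRNT1 was then at an edgeR adjusted p of 0.0504. Of all 14458 genes tested, that fit called 855 higher and 886 lower, against 1012 and 1033. Estimates near zero changed sign. DESeq2 gave 0.0027 for MT-TC and 0.0045 for PTCD2, and RLE 0.0044 and 0.0036. Factors from nuclear genes gave 0.00046 and posterior mean counts 7.9e-05 for MT-TC. No filter gave 0.012 for MT-TC, 0.0072 for MT-CO1 and 0.011 for PTCD2. The replicate block gave -0.0033 for MT-TQ and 0.0016 for PTCD2. Library size only gave -0.026 for MT-TQ, -0.0062 for MT-ND2, -0.035 for MTERF3 and -0.016 for MTND2P28, and scaling to the mitochondrial total -0.068, -0.043, -0.073 and -0.052. Limma gave, with pseudocounts of 0.1 and 1, -0.051 and -0.050 for MT-TQ, -7.4e-05 and -7.4e-05 for MT-ND2, -0.099 and -0.098 for MT-TT, -0.18 and -0.18 for MTERF3, and -0.0092 and -0.0092 for MTND2P28. Leaving out each library gave -0.15 to 0.45 for MT-TV, -0.43 to 0.0067 for MT-TI, -0.36 to 0.30 for MT-TQ, -0.029 to 0.099 for MT-ND2, -0.075 to 0.079 for MT-TC, -0.19 to 0.098 for MT-TY, -0.062 to 0.057 for MT-CO1, -0.44 to 0.12 for MT-TD, -0.094 to 0.015 for MT-CO2, -0.23 to 0.098 for MT-ATP8, -0.20 to 0.12 for MT-TG, -0.073 to 0.014 for MT-ND5, -0.14 to 0.091 for MT-ND6, -0.22 to 0.41 for MT-TE, -0.76 to 0.62 for MT-TT, -0.17 to 0.071 for MT-TP, -0.061 to 0.068 for PTCD2, -0.12 to 0.13 for MTERF3 and -0.0096 to 0.057 for MTND2P28. The cause of these changes was not tested.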

Other observations

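The nuclear genome holds copies of mitochondrial genes, and reads that fit both are divided by RSEM. By name, 415 such copies were in the tables, 108 of them had a count in at least 1 library and 18 passed the count filter. Together they held 0.237% and 0.241% of the expected counts in the untreated libraries, and 0.217% and 0.227% after hemin. The 3 copies with the most counts made up 92.0% of that total. MTATP6P1, on chromosome 1 (chr1:633696-634376, GRCh38), is 98.5% identical to MT-ATP6 and had 11107 and 10862 expected counts untreated, and 9414 and 10847 after hemin. Its log2 fold change was -0.13 (SE 0.042, edgeR adjusted p = 0.0727), beside -0.082 for MT-ATP6. MTND2P28, on the same chromosome, is 98.4% identical to MT-ND2 and was at 0.022 (SE 0.041, edgeR adjusted p = 0.774). MTND4P12, on chromosome 5, is 95.7% identical to MT-ND4 and was at -0.12 (SE 0.055, edgeR adjusted p = 0.171). Of the 18 tested copies, 1 was called higher and 0 lower, while 7.00% of all genes tested rose and 7.14% fell. MTRNR2L8, a copy of MT-RNR2 by name, was the only copy called, with 709 and 637 expected counts untreated and 750 and 798 after hemin, at 0.19 (SE 0.055, edgeR adjusted p = 0.0468), and it lost the call whichever of the 4 libraries was left out (edgeR adjusted p = 0.0821 to 0.187). Adding the counts of all named copies to each mitochondrial rRNA and mRNA moved its log2 ratio of group means by at most 0.0059, in MT-ATP6. For MT-RNR2 the shift was 0.00011, with 13 named copies. MT-RNR1 had 0 named copies, so nothing was added to its counts and its ratio could not move. Whether reads counted on these copies came from the nucleus or from mitochondria was not tested.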
